A study of Mus musculus with 4 samples.

Results

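The cells described here are mural cells of mouse subcutaneous adipose tissue (SAT), 92 of the 4738 SAT cells and of the 8986 cells of the whole series in which at least 200 genes were detected. They were selected cell by cell on measured transcripts, counted as unique molecular identifiers (UMIs). A cell was taken when its UMIs of Myh11, Rgs5 and Tagln summed to at least 3, when at least 2 genes among these and Acta2 were detected, when Dcn, Ptprc, Cd79a and Cd3e had no UMI, and when Pecam1 and Cdh5 together had at most 1. The selected cells were then divided into those with at least 1 Rgs5 UMI and those with none. Levels of these genes, and the contrast between the selected cells and the rest of SAT, were therefore used in the choice and are given as a description.

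The series held 4 single-cell RNA-seq libraries (Chromium 3ʹ chemistry), made from SAT and from tumors of mice treated with D-CAN, a compound that depletes adipose stromal cells, and of control mice given PBS. The labels give the genotype as VFB. The study describes chow-fed FVB mice bearing subcutaneous grafts of MycCaP, a prostate cancer cell line from HiMyc mice, and whether the SAT came from the same animals was not stated in the sources used here. There was 1 library per tissue and treatment, age and the number of animals behind a library were not stated in the sources used here, and no difference between D-CAN and control within SAT could be tested. The SAT libraries held 2841 cells with 6660758 UMIs (control) and 1897 cells with 7414246 UMIs (D-CAN) after the minimum of 200 genes, and the tumor libraries 2761 cells with 17931020 UMIs and 1487 cells with 15615176 UMIs. Libraries shared between 0 and 2 cell barcodes, and no mural cell carried a shared one.

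Mural cells wrap the outside of blood vessels. Vascular smooth muscle cells of arteries and arterioles are contractile and carry smooth muscle myosin, actin and their regulators, while pericytes sit on capillaries, share the basement membrane with the endothelium, and depend on platelet-derived growth factor signaling through Pdgfrb and on Notch signaling through Notch3. In adipose tissue, pericyte-like cells at the vessel wall have also been discussed as a source of adipocyte progenitors.

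Of the 92 mural cells, 56 came from the control library (1.97% of its cells, exact binomial 95% interval 1.49 to 2.55) and 36 from the D-CAN library (1.90%, 1.33 to 2.62). These intervals, and all others below, cover counting error only. The first 5 genes describe what was selected. Myh11 (smooth muscle myosin heavy chain; GRCm38 16:14194535-14291372, minus strand) was detected in 80 of 92 mural cells, and its level was 1993 (control) and 4375 (D-CAN) CPM (the UMIs of a class scaled to a common total) against 48.7 and 10.2 in all other SAT cells. Myh11 was found in 0.828% and 0.159% of Ptprc-positive leukocytes, at their median depths of 2309 and 3059 UMIs. Whether free RNA or doublets gave this share was not tested. Acta2 (smooth muscle actin; 19:34241090-34255590, minus strand) stood at 3551 and 5925 CPM, and Tpm2 (beta-tropomyosin; 4:43514711-43523765, minus strand), which the rule did not use, at 1697 and 3659. Rgs5 (a regulator of G-protein signaling enriched in pericytes; 1:169655501-169695813, plus strand) reached 2481 and 2788 CPM over all mural cells. Pdgfrb, the growth factor receptor of pericytes and fibroblasts, stood at 535 CPM in both libraries, against 27.2 and 16.7 in other SAT cells. The levels of Myh11, Acta2 and Rgs5 follow from the rule and do not support the label mural cell. The 2 genes outside the rule, Tpm2 and Pdgfrb, fit that label in both libraries.

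Outside the genes of the rule, and among genes with at least 100 UMIs, the genes with the highest level in mural cells relative to all other SAT cells were of the same kind. Lmod1 (leiomodin, an actin nucleator of smooth muscle) stood at 424 and 535 CPM, 49.6-fold and 431-fold above the other cells of the control and D-CAN library. Tpm2 (37.1-fold and 324-fold), Myl9 (the smooth muscle myosin regulatory light chain, 38.4-fold and 241-fold), Olfr558 (an odorant receptor that also marks vascular smooth muscle) and Notch3 (38.4-fold and 149-fold) followed. Ndufa4l2 (a mitochondrial complex subunit induced by hypoxia), Rgs4, the guanylate cyclase subunit Gucy1a1, which responds to nitric oxide, the myosin phosphatase inhibitor Ppp1r14a, the amine oxidase Aoc3, the intermediate filament gene Des and the kinase gene Mylk came next. Folds were larger in the D-CAN library for all 20 genes ranked in this way. The other SAT cells of the control library held more of these transcripts, for example 45.8 CPM of Tpm2 against 11.3 with D-CAN, and 14.9 against 2.02 in Ptprc-positive leukocytes.

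The mural cells of the 2 libraries differed in depth and in how close they lay to the threshold. Control mural cells had a median of 1195 UMIs (range 555 to 12071) and D-CAN mural cells 4155 UMIs (843 to 10874). The median sum of Myh11, Rgs5 and Tagln was 7 UMIs in control cells and 55 UMIs in D-CAN cells. In the control library 7 members sat at the threshold of 3 UMIs and 14 cells lay just outside it at 2 UMIs, whereas in the D-CAN library these numbers were 0 and 2. Of the Rgs5-positive members, 12 of 33 (control) and 3 of 21 (D-CAN) had a single Rgs5 UMI. Before any exclusion gene was applied, 134 control and 47 D-CAN cells met the positive part of the rule. The limit on Pecam1 and Cdh5 removed 61 and 9 of these cells, Dcn 14 and 1, Ptprc 8 and 1, Cd79a 10 and 0, and Cd3e 3 and 0, with some cells failing more than 1.

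Transcripts of other cell types were also spread unevenly. UMIs of 11 endothelial markers that mural cells do not share were found in 36 of 56 control mural cells (64.3%) and 5 of 36 D-CAN mural cells (13.9%). UMIs of 16 leukocyte markers were found in 32 control cells (57.1%) and 4 D-CAN cells (11.1%), and their summed level was 793 and 24.9 CPM, with Cd74 (22 UMIs) the most abundant in control cells. Fibroblast markers that mural cells do not share were found in 9 and 3 cells, and Pdgfra, Dpp4, F3, Lum, Fbln1, Igfbp6 and Pi16 had no UMI in any of the 92 cells. Of the adipocyte list, Adipoq, Cidec, Lep and Retn had no UMI, while Fabp4 was abundant (846 and 1273 UMIs). Of the full endothelial list, 14 of 14 genes were detected in control mural cells and 8 of 14 in D-CAN mural cells, where Egfl7, Tie1, Kdr, Pecam1, Gpihbp1 and Ecscr were at 0. Schwann cell markers gave 4 UMIs in control cells and 1 in D-CAN cells, epithelial and cancer cell markers 4 and 1, skeletal muscle markers 13 and 13 (Myl1 10 and 11), and erythroid markers 0 and 4. Members with no UMI of any endothelial, fibroblast or leukocyte marker, called marker-free below, numbered 13 in the control library and 28 in the D-CAN library. No doublet caller was run, and no doublets were removed.

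The share of mural cells in SAT was next compared between treatments. The shares given above differed by -0.0734 percentage points (95% interval -0.884 to 0.791), a difference within counting error. Other populations also differed between these libraries: endothelial cells made up 11.6% and 8.07% of control and D-CAN SAT, and Dcn-positive fibroblasts 6.79% and 3.58%. Among cells without Ptprc, Cd79a and Cd3e the mural share was 4.70% (56 of 1192) in control and 8.72% (36 of 413) in D-CAN SAT, 4.02 points higher (1.14 to 7.36). Of mural plus endothelial cells, mural cells made up 14.5% and 19.0%. The direction of the difference in mural share therefore depended on the cells it was counted against. Rgs5-positive cells made up 58.9% of mural cells (33 of 56, 45.0 to 71.9) in control and 58.3% (21 of 36, 40.8 to 74.5) in D-CAN SAT, and these shares differed by -0.595 points (-22.4 to 20.7).

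Within the mural cells, most contractile genes stood lower in Rgs5-positive than in Rgs5-negative cells of both libraries, and some pericyte and collagen genes stood higher. This is a description, since a cell without Rgs5 could enter only through Myh11 and Tagln. Per library, UMIs were summed over the cells of each class (82404 and 26002 UMIs for Rgs5-positive and Rgs5-negative control cells, 90365 and 70322 with D-CAN), and 613 genes with at least 20 UMIs in each library outside the rule, mitochondrial and ribosomal protein genes were compared. A gene could reach this minimum through the UMIs of 1 class alone, and more easily through the Rgs5-positive class, which held more UMIs, so the counts of genes past 2-fold depend on the minimum. Of the 613 genes, 34 (5.55%) were more than 2-fold higher and 20 (3.26%) more than 2-fold lower in Rgs5-positive cells of both libraries, and the median log2 ratio over all of them was 0.21 in control and 0.07 with D-CAN. The cells of the classes differed in quality as well: the median mitochondrial share was 4.49% in Rgs5-positive and 12.4% in Rgs5-negative control cells, and 8.73% and 11.2% with D-CAN, and the part of this in the ratios was not tested.

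Contractile genes were lower in Rgs5-positive cells. Of 19 contractile genes measured outside the rule, 18 were lower in both libraries, 7 by more than 2-fold (against 3.26% of all genes), and the median log2 ratio was -1.05 in control and -0.93 with D-CAN. Tpm2 stood at 1250 CPM in Rgs5-positive and 3115 in Rgs5-negative control cells, and at 2479 and 5176 with D-CAN. Mylk, the kinase that activates smooth muscle myosin, stood at 765 and 2038 in control and at 1007 and 2503 with D-CAN. The Rgs5-negative cells were high in both libraries for these genes. Their counting intervals did not meet those of the Rgs5-positive cells, which does not test the difference. A cell without Rgs5 could enter only through Myh11 and Tagln, so contractile levels, counts and medians are tied to the choice. Myl6 (a myosin essential light chain, 1845 and 4038, then 2634 and 5034) and Myl9 (1323 and 2115, then 2401 and 3825) followed the same order. The exception was Cav1, the caveolae protein that endothelial cells also express, with log2 ratios of 3.05 and 0.10. Pln, the phospholamban that restrains the calcium pump of the sarcoplasmic reticulum, had 4 UMIs in 1 Rgs5-positive control cell and 1 UMI in 1 Rgs5-positive D-CAN cell, against 8 UMIs in 6 of 23 and 44 UMIs in 12 of 15 Rgs5-negative cells.

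**Figure D1:**
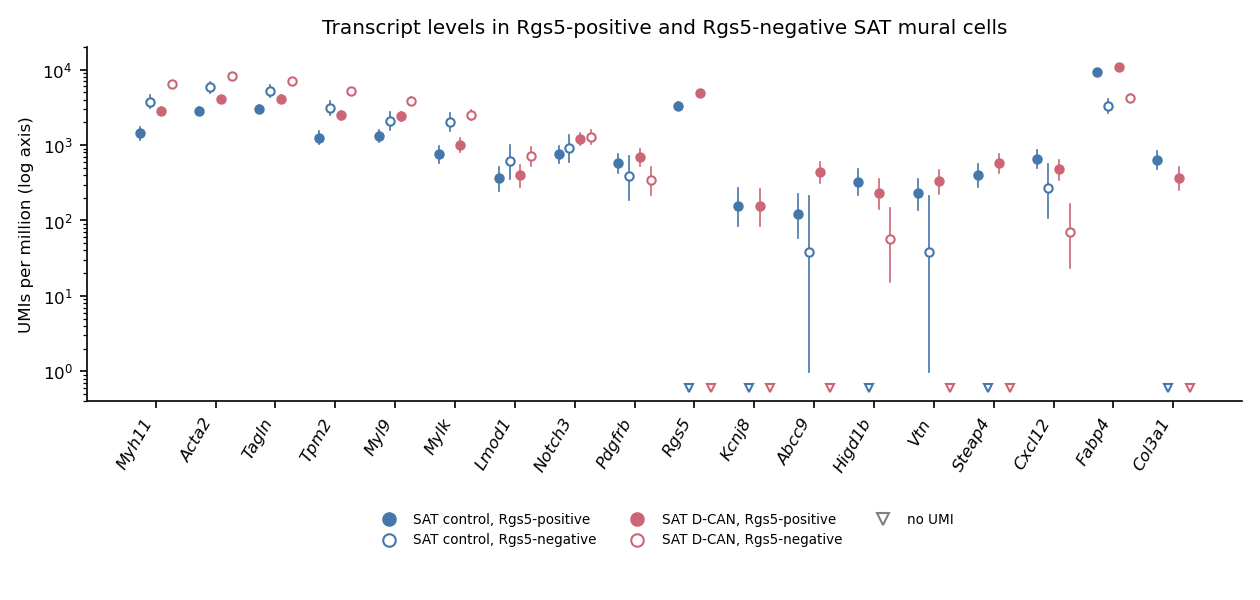
Level of each transcript in CPM (log axis) in Rgs5-positive (filled) and Rgs5-negative (open) mural cells of SAT control (blue) and SAT D-CAN (red), with exact Poisson 95% intervals for counting error as bars and triangles for no UMI. Myh11, Acta2, Tagln and Rgs5 were used to choose the cells, and Tpm2, Myl9 and Mylk stood higher in Rgs5-negative cells of both libraries.

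Among the 20 genes past 2-fold lower in both libraries, the 10 lowest in Rgs5-positive cells included genes of the actin cytoskeleton. Sorbs2, an adaptor of actin filaments, stood at 133 and 1000 CPM in Rgs5-positive and Rgs5-negative control cells and at 199 and 1010 with D-CAN. Palld (palladin, which bundles actin; log2 ratios -1.75 and -2.0), Pbxip1 (-1.74 and -1.72), Dstn (destrin, which severs actin filaments; -1.58 and -1.81), Ppp1r12a (the targeting subunit of myosin phosphatase; -1.50 and -1.65), Mustn1 (-1.58 and -1.51), the tetraspanin Cd9 (-1.14 and -1.93), Nrip2, the ketone body enzyme Oxct1 (-1.66 and -1.13) and Mylk made up the rest. In marker-free cells, of which the control library held 4 Rgs5-positive and 9 Rgs5-negative, these 10 genes kept their sign in both libraries. This does not support the ratios, since those cells are a subset of the cells that ranked the genes.

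Of the contractile genes that were lower in Rgs5-positive cells, 3 carried a CArG box, the motif to which serum response factor binds at smooth muscle promoters, within 250 bases before and 50 bases after a RefSeq start (GRCm38.p6). They are printed as 60 bases on the strand of the gene with the motif in capitals, because they allow the motif to be read in its place.
Myl9: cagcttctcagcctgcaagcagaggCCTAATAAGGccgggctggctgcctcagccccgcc
Myl6: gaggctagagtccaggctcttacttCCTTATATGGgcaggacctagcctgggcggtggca
Filip1l: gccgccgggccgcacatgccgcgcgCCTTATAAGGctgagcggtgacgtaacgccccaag
The Myl9 stretch lies at chr2:156775278-156775337 on the plus strand, with the motif 161 to 152 bases before the start. The Myl6 stretch lies at chr10:128493025-128493084 on the minus strand (motif 50 to 41 bases before 1 of 2 annotated starts), and the Filip1l stretch at chr16:57549155-57549214 on the plus strand (62 to 53 bases before 1 of 2 starts). Searched on both strands, the motif occurred in 3 of 24 contractile genes with a promoter in the table (12.5%; Tagln, Myh11, Actg2 and Nexn not used here), in 0 of 20 pericyte genes and in 488 of all 27025 genes (1.81%). Filip1l, a filamin-interacting protein, stood at 643 and 885 CPM in Rgs5-positive and Rgs5-negative control cells and at 465 and 1650 with D-CAN. A match describes these letters in this window and not binding.

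Some pericyte genes stood in the other direction, though not the list as a whole. Of 15 pericyte genes measured outside the rule, 10 were higher in Rgs5-positive cells of both libraries and 3 lower, with median log2 ratios of 0.51 and 0.28, close to those of all genes. The 5 of 15 genes past 2-fold higher in both (against 5.55% of all genes) were Steap4, Vtn, Higd1b, Postn and Ebf1. All 5 had fewer than 20 UMIs in Rgs5-negative control cells (17 for Ebf1). They thus needed the Rgs5-positive class to reach the minimum of 20 UMIs, so the count does not set the list apart. Steap4, a metalloreductase known from adipose tissue, had 33 UMIs in 6 of 33 Rgs5-positive control cells and 52 UMIs in 14 of 21 Rgs5-positive D-CAN cells, and no UMI in the 38 Rgs5-negative cells. Against a limit of 3 UMIs per class, its log2 ratio was at least 1.80 and at least 3.75. After thinning each cell to 1000 UMIs, Steap4 was detected in 2 of 24 and 7 of 20 Rgs5-positive cells. The 0 of 12 and 0 of 15 Rgs5-negative cells were fixed, since none held a UMI before thinning. Thinning therefore does not test the difference. Ebf1, a transcription factor of mural and stromal cells, stood at 1711 and 654 CPM in control and 1660 and 782 with D-CAN. Postn (periostin, a matrix protein) stood at 316 and 115 in control and at 1273 and 0 with D-CAN.

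Some other pericyte genes were shared by both classes. Notch3 stood at 765 and 923 CPM in Rgs5-positive and Rgs5-negative control cells and at 1217 and 1294 with D-CAN, and Gucy1a1 (752 and 615, then 918 and 754) and Ndufa4l2 (765 and 615, then 918 and 754) were similarly close. Rgs4, a relative of Rgs5, went opposite ways (570 and 385, then 741 and 1450.5). Aoc3 (log2 ratios -1.72 and -0.80) and Olfr558 (-0.70 and -1.04) were lower in Rgs5-positive cells of both libraries. Kcnj8 and Abcc9 encode the subunits of the vascular ATP-sensitive potassium channel. Both were counted together with Higd1b, Vtn and Steap4, which were named above as past 2-fold higher in Rgs5-positive cells. The counts that follow restate that difference in part and do not support it. At least 1 transcript of Kcnj8, Abcc9, Higd1b, Vtn or Steap4 was present in 36 of 54 Rgs5-positive cells (66.7%) and 5 of 38 Rgs5-negative cells (13.2%). In the control library this was 17 of 33 and 2 of 23 cells at median depths of 1243 and 1004 UMIs. In Ptprc-positive leukocytes each of these transcripts was found in fewer than 1% of cells, for example Steap4 in 0.678% and 0.717%.

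**Figure D2:**
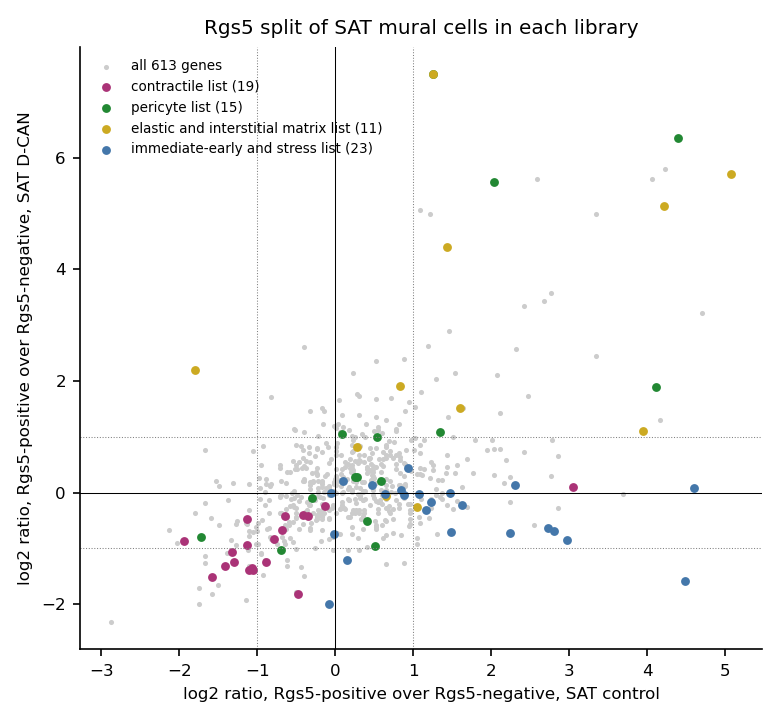
Log2 ratio of Rgs5-positive over Rgs5-negative mural cells in SAT control (horizontal axis) and SAT D-CAN (vertical axis) for the 613 genes compared, with the contractile, pericyte, elastic and interstitial matrix, and immediate-early and stress lists in color and 2-fold marked by dotted lines. Of the contractile genes 18 of 19 lie below 0 in both libraries, and the immediate-early and stress list has a median of 1.17 in control and -0.17 with D-CAN.

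Some matrix genes also stood higher in Rgs5-positive cells. Of 11 elastic and interstitial matrix genes, 8 were higher in Rgs5-positive cells of both libraries and 6 by more than 2-fold (against 5.55% of all genes), with median log2 ratios of 1.26 and 1.90. Col3a1, Col6a1, Postn, Col1a2 and Eln reached the minimum of 20 UMIs through the Rgs5-positive class, so the count and the medians do not set the list apart. Col3a1, a fibrillar collagen, had 53 UMIs in 14 of 33 control cells and 33 UMIs in 6 of 21 D-CAN cells, of which 30 and 18 UMIs came from 1 cell in each library, and no UMI in Rgs5-negative cells. Col6a1 stood at 352 and 243 CPM against 0 in both. Sparc, a collagen-binding matrix protein, stood at 2730 and 885 CPM in control and 3231 and 1123 with D-CAN. These transcripts were abundant in the Dcn-positive fibroblasts of the same libraries (Sparc at 6135.5 and 7124), and fibroblast marker UMIs stood in 7 Rgs5-positive and 2 Rgs5-negative control cells and in 3 and 0 D-CAN cells. Their part in the ratios was not tested. In marker-free cells Col3a1 had 5 UMIs in the 4 Rgs5-positive and 0 in the 9 Rgs5-negative control cells, and 4 and 0 with D-CAN. The values of 0 were fixed, since no Rgs5-negative cell held a Col3a1 UMI, so they do not support its ratio. The marker-free log2 ratios of Sparc were 2.32 and 1.05, of Col1a2 0.38 and 3.78, and of Eln 2.45 in control but -0.62 with D-CAN.

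The remaining genes that were highest in Rgs5-positive cells had mixed roles. Meg3, a long noncoding RNA of stromal cells, stood at 1080 and 38.5 CPM in control and 1184 and 14.2 with D-CAN. Phlda1 (498 and 0, then 587 and 56.9), the lipid hydroxylase Cyp4b1 (340 and 38.5, then 343 and 0), the interferon-inducible Ifitm1 (583 and 38.5, then 221 and 0) and H2-M9, a class I-like gene seen in 4 cells of each library, completed the 10 with Col3a1, Steap4, Col6a1, Postn and Vtn. For Ifitm1, 28 of 48 UMIs in the Rgs5-positive control class were in 1 cell, and for Phlda1 20 of 41. For H2-M9, 1 cell held 11 of 26 UMIs in that class and 25 of 31 with D-CAN. Of these 10 genes, 9 kept their sign in marker-free cells of both libraries, and Vtn did not in control, where 1 UMI stood in each class. This does not support the ratios. Col3a1, Steap4, H2-M9 and Col6a1 had no UMI in Rgs5-negative cells of either library. Postn, Ifitm1, Cyp4b1 and Vtn had none there with D-CAN. A subset of those cells could only give 0 again.

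Fabp4 and Cd36 stood higher in the Rgs5-positive cells of both libraries. Fabp4, the fatty acid binding protein of adipocytes and capillary endothelium, stood at 9211 and 3346 CPM in Rgs5-positive and Rgs5-negative control cells and at 10801 and 4223 with D-CAN, and it was detected in 54 of 54 Rgs5-positive cells. Cd36, the fatty acid translocase, stood at 583 and 38.5 in control and 421 and 71.1 with D-CAN. Lpl, lipoprotein lipase, differed less, with log2 ratios of 0.61 and 0.48. Endothelial cells held 30313 and 33802 CPM of Fabp4 and leukocytes 681 and 688. In marker-free mural cells Fabp4 remained at 8026 and 7849 CPM.

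Cxcl12, the chemokine on which the study centers, was found in 32 of 54 Rgs5-positive mural cells (59.3%) and 11 of 38 Rgs5-negative cells (28.9%), against 4.44% and 2.07% of Ptprc-positive leukocytes. Cxcl12 (6:117168535-117181367, plus strand) stood at 655 and 269 CPM in Rgs5-positive and Rgs5-negative control cells and at 476 and 71.1 with D-CAN. Of the UMIs in Rgs5-positive cells, 1 cell held 20 of 54 in control and 1 cell 15 of 43 with D-CAN. After thinning to 1000 UMIs it was detected in 10 of 24 and 4 of 12 control cells and in 8 of 20 and 2 of 15 D-CAN cells. Its level over all mural cells, 563 (control) and 299 (D-CAN) CPM, was below that of fibroblasts (836 and 930) and endothelial cells (1606 and 1694) in the same libraries. Marker-free cells held 2 and 2 UMIs in control and 13 and 5 with D-CAN, so that their control ratio cannot be read. Pdgfrb and Cxcl12 were found together in 22 of 54 Rgs5-positive cells (40.7%) and 5 of 38 Rgs5-negative cells (13.2%), and Pdgfra in 0 of 92. A count of 0 (taken as 3 cells) allows a share of cells with a Pdgfra UMI of up to 5.36% in control and 8.33% with D-CAN, which limits cells with a UMI and not cells expressing the gene. Vim was detected in 76.8% and 91.7% of mural cells. Icam1 was found in 1 cell of each library, and Mki67, the proliferation marker, in 2 of 92 cells.

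Treatment was then compared within the mural cells, without replicates. With D-CAN, 44 of 651 genes with at least 50 UMIs (6.76%) were more than 2-fold higher and 17 (2.61%) more than 2-fold lower than in control, and the median log2 ratio was 0.16. A gene could reach this minimum through the UMIs of 1 library alone, so these counts and the ranking depend on the minimum. The largest ratio was that of Irs2, an insulin receptor substrate, with 3 UMIs in 3 control cells and 48 UMIs in 17 D-CAN cells, a ratio of 10.8 (95% interval 3.48 to 54.2). Irs2 thus needed the D-CAN library to reach the minimum. Its UMIs were 0 and 40 in Rgs5-negative cells and 3 and 8 in Rgs5-positive cells. Ppp1r12c (a myosin phosphatase subunit, ratio 4.39), Pcp4l1 (3.74), Epn2 (3.22), Sept8 (2.98), Zfp36 (2.89), Rcan2 (2.85), Srrm1 (2.83), Ppp1r12b (2.76) and Hrct1 (2.75) followed. Of these 10 genes, all had the same direction in marker-free members, but the control levels there rested on few UMIs. This does not support the ratios, since marker-free members are a subset of the cells that ranked the genes. Those levels were 33.0 CPM for Irs2 and Epn2 and 66.1 CPM for Zfp36 and Srrm1. The marker-free log2 ratios of Rcan2 (0.45) and Ppp1r12b (0.39) fell below 2-fold.

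Of 19 contractile genes measured outside the rule, 5 were more than 2-fold higher with D-CAN and 0 lower, with a median log2 ratio of 0.63, and channel and calcium genes (4 of 11 higher, 0 lower, median 0.45) stood likewise. The background was 6.76% of all genes higher and 2.61% lower, and the list counts share its dependence on the minimum. The median was 0.21 for 17 pericyte genes (3 higher, 0 lower), 0.29 for 12 elastic and interstitial matrix genes (1 higher, 2 lower) and 0.19 for 23 immediate-early and stress genes (1 higher, 0 lower). Tpm2 stood at 1697 and 3659 CPM over all members, but at 3534 and 3441 in marker-free members, where the ratio was near 1.

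The genes lowest with D-CAN included endothelial genes and genes of antigen presentation. Rbp7 (480 and 6.22 CPM) and the tight junction gene Cldn5 (470 and 18.7) are endothelial. Ly6c1 (489 and 6.22) was high in endothelial cells (1590 and 1649) and also in fibroblasts (1341 and 1133) of the same libraries. Ly6e, Apoe, Mgp and Ifitm1 were also among the 10. Rbp7 (52 and 1 UMIs), Cldn5 (51 and 3), Ly6c1 (53 and 1) and Ly6e (51 and 7) reached the minimum of 50 UMIs through the control library. The class I genes H2-K1 (17:33996017-34000347, minus strand) and H2-D1 (17:35262730-35267499, plus strand) stood at 1282 and 3007 CPM in control and 205 and 517 with D-CAN, ratios of 0.16 (0.11 to 0.24) and 0.17 (0.13 to 0.22), and their partner B2m at 1328 and 243. H2-K1 did not differ in this way in endothelial cells (1986 and 2148) or leukocytes (1926 and 1988) of the same libraries. In fibroblasts H2-K1 stood at 1178 and 703 CPM and B2m at 1732 and 1228. In marker-free mural cells H2-K1 stood at 132 and 163, B2m at 231 and 235 and H2-D1 at 694 and 416 CPM. Apoe (330 and 63.2 CPM, from 10 and 7 UMIs) and Ifitm1 (363 and 54.2, from 11 and 6 UMIs) stood lower with D-CAN in marker-free cells as well, and Ly6e (66.1 and 27.1) had 2 and 3 UMIs there. Cldn5 is among the markers by which these cells were filtered, so its level there is 0 by construction. H2-K1 and B2m thus lay close together between treatments in marker-free cells, of which the control library gave few UMIs. Mgp, an inhibitor of calcification, stood at 950 and 187 over all members but at 0 and 199 in marker-free members.

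**Figure D3:**
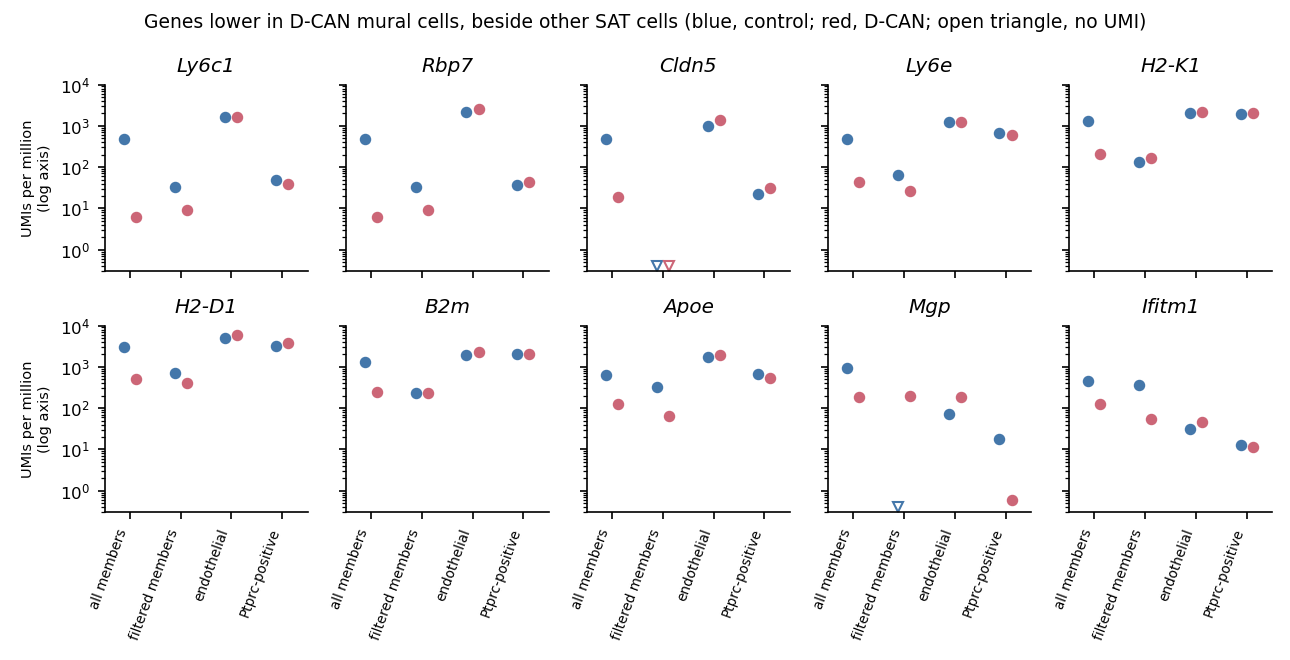
Levels in CPM (log axis) of the 10 genes lowest in D-CAN relative to control mural cells, in all members, in marker-free members (labelled filtered members), in endothelial cells and in Ptprc-positive cells of SAT control (blue) and SAT D-CAN (red), each point 1 library and open triangles no UMI. H2-K1 and B2m differ between libraries in all members (1282 and 205, 1328 and 243) and lie close together in marker-free members (132 and 163, 231 and 235), while Apoe and Ifitm1 stay apart (330 and 63.2, 363 and 54.2) and Cldn5 is 0 there because it was filtered on.

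Finally, the Rgs5-positive SAT mural cells were compared with the tumor cells that had at least 2 Rgs5 UMIs, 56 in the control and 32 in the D-CAN tumor. In the tumors, 8 and 6 cells had exactly 2 Rgs5 UMIs, 30 and 17 cells had 1 and lay outside, and 37 and 19 of the chosen cells also met the whole SAT rule. The summed UMIs of the 4 libraries were tested with the quasi-likelihood test of edgeR, with terms for tissue and treatment and 1 residual degree of freedom per gene. Of 3117 genes outside the rule, 175 (5.61%) were higher and 100 (3.21%) lower in SAT at an adjusted p under 0.05 (451 and 393 at an unadjusted p under 0.05; 70 and 41 at an adjusted p under 0.05 with DESeq2), and the median log2 difference was -0.05. The 4 libraries are 2 of each tissue, from different treatments, and tissue cannot be told apart from the handling of each tissue. The 12 genes named below as higher and the 11 as lower all had an adjusted p of 0.0252 by edgeR.

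The genes higher in SAT mural cells included regulators, matrix and signaling genes. Eln, the elastin of vessel walls (5:134702593-134747323, minus strand), stood at 291 (control) and 376 (D-CAN) CPM in SAT and at 4.01 and 0 in tumor, a log2 difference of 7.02 ± 0.68 (SE, n = 2 libraries per tissue). Id4, an inhibitor of basic helix-loop-helix factors, stood at 303 and 321 in SAT and 8.02 and 3.59 in tumor. Sncg, gamma-synuclein, stood at 643 and 852 against 60.2 and 43.1. These genes were chosen by this comparison, so the distance between the tissues in them is a description. Fos and Btg2, both induced within minutes of a stimulus, differed by 4.43 ± 0.38 and 3.09 ± 0.29 on the log2 scale. Wtip, Gstm1 (a glutathione transferase), Sgip1, the calcium-binding Tesc, the protein C receptor Procr, the stress kinase Map3k20 and Gucy1a1 were the others, with log2 differences between 2.68 (Gucy1a1) and 6.64 (Tesc).

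The genes lower in SAT mural cells included collagens and other genes of the interstitial matrix. Col1a2 stood at 255 and 443 CPM in SAT and 3915 and 4565 in tumor (log2 difference -3.61 ± 0.38), and Col1a1 at 255 and 99.6 against 2716 and 3212. Fn1, the fibronectin followed in the study, stood at 36.4 and 0 in SAT against 1284 and 1335 in tumor. Timp1, an inhibitor of matrix metalloproteases, and Spp1 (osteopontin) had no UMI in SAT and stood at 594 and 707, and at 798 and 248, in tumor. With DESeq2 neither passed (adjusted p of 0.261 and 0.367), though the log2 differences stayed large (-8.23 and -7.73). Col5a2, Fbn1 (fibrillin), Aebp1, Thbs1 (thrombospondin), Igfbp3 (a binding protein of insulin-like growth factors) and the stromal marker Cd248 were also lower. The tumor cells held more fibroblast list transcripts (6566 and 7098 CPM, with Col1a1 the most abundant) than the Rgs5-positive SAT cells (2524 and 2678), and 48 and 22 of the chosen tumor cells met the exclusions of the SAT rule. Their part in the result was not tested. With the tumor cells held to the exclusions, 93 of the 94 lower genes that were still tested were called again.

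**Figure D4:**
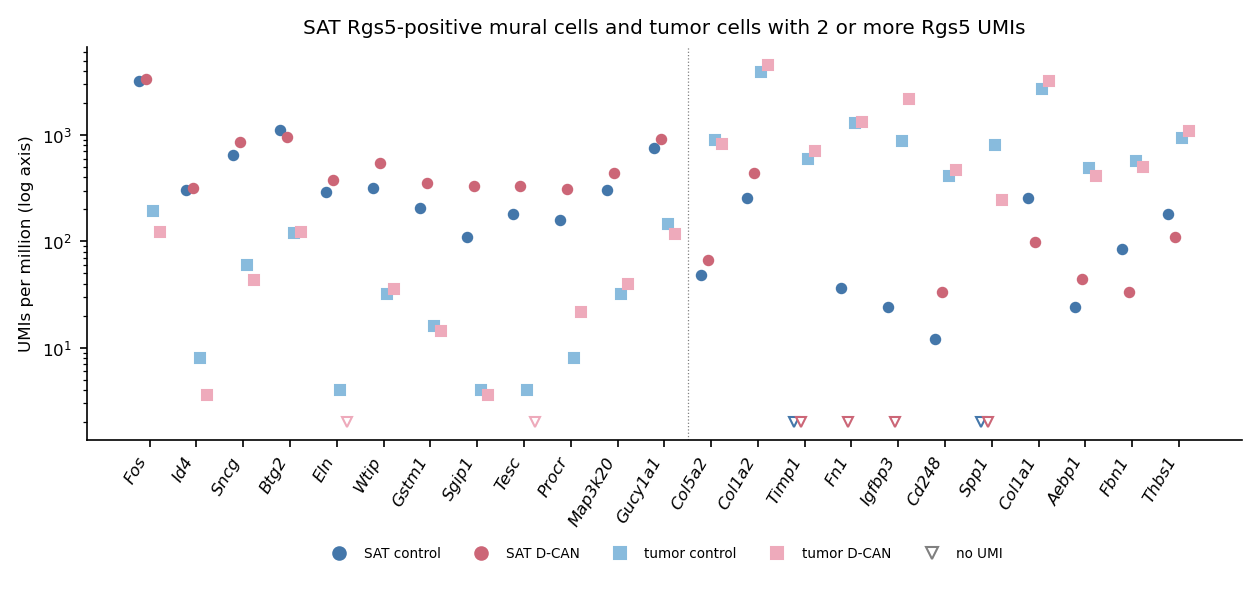
Levels in CPM (log axis) of genes with the smallest adjusted p, 12 higher in SAT left of the dotted line and 11 lower in SAT right of it, in Rgs5-positive SAT mural cells (circles) and tumor cells with at least 2 Rgs5 UMIs (squares) of control (blue) and D-CAN (red) libraries, with open triangles for no UMI. The genes were chosen by this comparison, so the separation of the tissues in them follows from the choice.

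Over the lists, matrix and immediate-early genes had the largest shares called, against 5.61% of all genes higher and 3.21% lower. Of 24 elastic and interstitial matrix genes, 16 were lower and 3 (Eln, Timp3 and Cyr61) higher in SAT, with a median log2 difference of -2.31. Mgp stood at 595 and 288 CPM in SAT and 6935 and 10425 in tumor. Of 22 basement membrane genes, Col4a1, Col4a2, Col15a1 and Lamb1 were lower and Lamb2, Itga7 and Adamts1 higher. Of 24 immediate-early and stress genes, 14 were higher and 0 lower, with a median of 1.81. Fos was also unequal in all other cells of the libraries, at 651 and 878 CPM in SAT and 192 and 188 in tumor, and the part of this in the mural difference was not tested.

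Pericyte and contractile genes were mostly higher or did not pass the test. Of 24 pericyte genes, 7 were higher (Notch3, Gucy1a1, Gucy1b1, Steap4, Vtn, Ebf1 and Olfr558) and 0 lower, with a median of 1.08. Of 22 contractile genes, 7 were higher (Sncg, Ppp1r12b, Lmod1, Myl9, Synpo2, Mustn1 and Filip1l) and Actg2, the enteric smooth muscle actin, lower, with a median of 1.17. The SAT rule counted Myh11 and Tagln and the tumor rule did not, so contractile counts are tied to the choice. Pdgfrb (582 and 686 CPM in SAT, 774 and 829 in tumor), Kcnj8 (158 and 155, then 313 and 219) and Abcc9 (121 and 443, then 445 and 362) did not pass. With the tumor cells chosen by the whole SAT rule, the log2 difference turned from -0.72 to 0.72 for Kcnj8. For Abcc9 it turned from -0.59 to 0.30, and neither passed. Of 15 transcription factors, Klf4, Hes1, Ebf1, Mef2c, Zeb2 and Nr2f2 were higher and 0 lower, with a median of 1.54. Of 13 channel and calcium genes, Cacna1c, Ano1, Itpr1 and Atp2a2 were higher, and of 22 receptors Notch3, Tgfbr3, Gucy1a1 and Gucy1b1 were higher and the thrombin receptor F2r lower.

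Of 17 secreted signals, 5 were higher in SAT (Igfbp5, Angpt1, Cxcl12, Jag1 and Kitl) and Inhba was lower, with a median of -0.06. Igfbp5, a binding protein of insulin-like growth factors, stood at 1893 and 3486 CPM in SAT and 88.2 and 17.9 in tumor. Angpt1, the pericyte ligand of the endothelial Tie2 receptor, differed by 4.18 ± 0.79 on the log2 scale. Cxcl12 stood at 655 and 476 CPM in SAT and at 24.1 and 118 in tumor, a log2 difference of 3.09 ± 0.64 with an adjusted p of 0.045 by edgeR. In SAT 1 cell held 20 of the 54 control UMIs of Cxcl12 and 1 cell 15 of the 43 with D-CAN. Endothelial marker UMIs stood in 23 of 33 Rgs5-positive control cells, and endothelial cells had more Cxcl12 than mural cells. Their part in the difference was not tested. Of the lists of other cell types, Col1a1 and Col3a1 (fibroblast) were lower and Cd36 (endothelial) higher. When the tumor cells were instead chosen by the whole SAT rule with at least 1 Rgs5 UMI, which gave 48 and 23 cells, 147 of 161 higher and 91 of 96 lower genes that were still tested were called again. The log2 difference of Cxcl12 was then 5.79 in place of 3.09.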

How the data were processed

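Gene-by-cell UMI counts (31053 genes) were used as deposited by the authors, who made them with Cell Ranger 3.1.0 (header of the SAT D-CAN matrix, 3.0.2) against mm10. Members and gene lists were chosen with earlier results of these data known. Counts were summed per library and class and scaled to CPM. Ratios between classes used 0.5 UMI added before log2, and shares and levels were given exact binomial or Poisson 95% intervals. Total UMIs per library ran from 6660758 to 17931020. Tissues were compared with edgeR 4.0.16 (quasi-likelihood, TMM, filterByExpr, Benjamini-Hochberg adjustment) in R 4.3.3, with DESeq2 1.42.0 as an alternative; the code was tested on simulated data. Named were the genes of the rule and of the study, list members by abundance and the 20 highest folds over other cells. The 10 highest and lowest genes of each ratio were named too, for the Rgs5 split among genes past 2-fold in both libraries. Also named were the 12 smallest adjusted p in each direction between tissues. Other list members that passed a test were named after their values were seen. Promoters came from RefSeq (GRCm38.p6), with 24 of 28 contractile genes matched. The gating exclusions, marker-free members, mural plus endothelial shares and the whole rule in tumor cells were alternatives chosen after seeing the data. Some genes that the naming rule covers are not reported here. No column was left out as belonging to another series.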

Additional observations from a re-analysis of the deposited data

Results flagged for a closer look

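In 12 of 613 genes the Rgs5-positive cells stood above the Rgs5-negative cells in one SAT library and below them in the other, with both counting intervals away from equality. There was 1 library per treatment, so the difference was not tested. 8 of these genes, all covered by the naming rule, are given by their log2 ratio of Rgs5-positive over Rgs5-negative, first in control and then with D-CAN. Of the immediate-early genes, the ratios were 1.17 and -0.31 for Fos, 2.80 and -0.68 for Egr1, 2.98 and -0.85 for Atf3, 4.49 and -1.58 for Nr4a1, 1.48 and -0.70 for Dusp1, and 2.24 and -0.72 for Zfp36. The Rgs5-negative control cells held few of these UMIs (37 of Fos, 3 of Egr1, 1 of Atf3, 0 of Nr4a1, 7 of Dusp1 and 2 of Zfp36), and their library class had the fewest UMIs of the 4 (26002). In the Rgs5-positive control cells, 1 cell held 111 of 266 Fos UMIs, 1 cell 19 of 37 of Atf3 and 1 cell 18 of 35 of Nr4a1. In marker-free cells the ratios were 1.0 and 0.41 for Fos and 1.88 and 0.26 for Dusp1, above 0 in both libraries, and they went opposite ways for Vim (1.25 and -0.45), Egr1 (1.57 and -0.75) and Nr4a1 (3.11 and -1.53), the last 2 from 9 and 2 and from 5 and 0 UMIs in marker-free Rgs5-positive and Rgs5-negative control cells. No direction can be read in marker-free control cells for Atf3 (2 and 1 UMIs), Zfp36 (1 and 1) or Mgp (0 and 0). Vim, the intermediate filament of mesenchymal cells, had ratios of 0.85 and -0.76. Mgp went the other way, with -1.80 and 2.20, and its 54 UMIs in Rgs5-negative control cells came from 8 cells.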

How the results depend on the processing

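The main limits were 1 library per treatment, few mural cells, shallower control members and 1 residual degree of freedom between tissues. The cause of each shift below was not tested unless the setting itself shows it. The D-CAN minus control mural share (-0.0734 points) became 0.268 with 500 genes per cell, 0.206 with at most 20% mitochondrial UMIs, 0.384 at a sum of 5, 4.02 among cells without Ptprc, Cd79a or Cd3e, 7.76 among cells without leukocyte UMIs, 4.5 among mural plus endothelial cells, 0.930, 0.0852, 0.842 and 1.02 for members without endothelial, fibroblast, leukocyte or any of these markers, -1.36 without the Pecam1 and Cdh5 limit and -2.24 without exclusions. The Rgs5-positive share difference (-0.595) became -18.3 thinned to 1000 UMIs, -7.57 with 500 genes, -10.7 without the Pecam1 and Cdh5 limit, -10.3 without exclusions, 12.5 at 2 Rgs5 UMIs, and 11.3, 9.38 and 26.4 without endothelial, leukocyte or any markers. The contractile median (-1.06) was -1.17 at 2 Rgs5 UMIs, -0.95 thinned, -1.20 with 500 genes, and -0.85 and -0.64 without endothelial or any markers. The pericyte median (0.40) was 0.025 thinned (2 genes), 0.20 with 500 genes, and 0.045, 0.024 and 0.18 without endothelial, leukocyte or any markers. The 61 genes past 2-fold with D-CAN became 274 at 20 UMIs, 20 at 100 UMIs, 23 in Rgs5-positive and 28 in Rgs5-negative cells, 106 by mean of cells, and 35, 32 and 28 without endothelial, leukocyte or any markers, with 8, 11 and 6 of the 44 higher and 0, 3 and 0 of the 17 lower genes shared. Between tissues, the 175 higher and 100 lower genes became 70 and 41 with DESeq2 (67 and 36 of them shared; Timp1 and Spp1 were lost, at adjusted p of 0.261 and 0.367, with log2 differences of -8.23 and -7.73), 351 and 281 without the treatment term, 339 and 278 at 2 Rgs5 UMIs in SAT, 304 and 217 with the exclusions in tumor, 415 and 304 with all SAT members, and 288 and 259 without endothelial markers. The lower count was 421 unfiltered, 188 with upper quartile scaling and 154 with at most 20% mitochondrial UMIs. Leaving out 1 library at a time, with tissue as the only term and the lone library assumed to vary like the others, gave 241 to 342 higher and 221 to 392 lower, namely 342 and 392 without SAT control, 241 and 225 without SAT D-CAN, 299 and 243 without tumor control, and 267 and 221 without tumor D-CAN. In the alternatives in which shared calls were counted, no called gene changed sign. The treatment term of the tissue comparison pairs SAT with tumor within treatment, and the counts without it are given above; the labels gave no replicate numbers by which to pair libraries further.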
